A study of Danio rerio with 6 samples.

Results

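The miR-30 family was examined in zebrafish ovarian follicular cells, the layers of granulosa, theca and associated cells that surround the oocyte. Its members were taken by name, as every zebrafish (dre-) miRNA listed with the number 30, whatever its arm or letter, which gave 7 of the 289 listed miRNAs. These 7 were dre-miR-30a-5p, dre-miR-30b, dre-miR-30c-5p, dre-miR-30c-3p, dre-miR-30d, dre-miR-30e-5p and dre-miR-30e-3p. Small RNA was sequenced from 3 samples of stage IIIa and 3 samples of stage IIIb follicular cells, each a pool of cell layers stripped by forceps from size-sorted follicles of several females from a local supplier. Stage IIIa follicles are at an early step of yolk uptake and do not yet mature when given hormone, which the larger stage IIIb follicles do. The labels give no strain, age or treatment for either stage. The values are normalized counts, reads assigned to a mature miRNA divided by a size parameter of the library, and all 7 members were above 0 in all 6 samples. Where 3 values are given for a stage, they are those of replicates 1, 2 and 3 in that order. Whether a lower count came from fewer cells of a type or from less of the miRNA per cell cannot be told apart in such pools.

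MicroRNAs are cut from hairpin precursors whose arms each can give a mature strand, named 5p and 3p after its end of the hairpin, and one arm usually supplies most of the loaded strand. A loaded miRNA recognises messenger RNAs mainly through its seed, the bases from position 2 to position 8, so that miRNAs with the same seed can share targets. The 5p strands of the miR-30 family share their seed in vertebrates. In mammals the family is known for repressing genes of mesenchymal cell state and of autophagy, and in zebrafish embryos it is known for a part in liver and bile duct development.

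The mature sequences show how the family is built and which members are hard to tell apart, and they are given as the deposited tables write them, with T for U and with the seed in capitals.
dre-miR-30d: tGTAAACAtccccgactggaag
dre-miR-30a-5p: tGTAAACAttcccgactggaag
dre-miR-30e-5p: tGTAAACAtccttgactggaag
dre-miR-30c-5p: tGTAAACAtcctacactctcag
dre-miR-30b: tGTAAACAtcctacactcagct
dre-miR-30e-3p: cTTTCAGTcggatgtttgcagc
dre-miR-30c-3p: cCGGGAGTgggatgtttgcgct
All 7 are 22 bases long, so no correction for length was needed between them. Whether reads of different sequences were captured equally was not tested, so the levels compared below are read counts. The 5 strands from the 5p arm carried the same seed, GTAAACA, and the 2 strands from the 3p arm carried different ones, TTTCAGT and CGGGAGT. Of all 289 listed miRNAs, 6 had the seed GTAAACA, the 5 members and aca-miR-30a-5p, a sequence that the authors matched to a lizard precursor. The seed TTTCAGT was found in 2, dre-miR-30e-3p and ipu-miR-30d, the latter matched to a catfish precursor. The seed CGGGAGT was found in dre-miR-30c-3p alone.

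Outside the seed the members differed in the middle and at the 3′ end. Counting from 1 at the 5′ end, dre-miR-30a-5p differs from dre-miR-30d by 1 base (C10T, the base of dre-miR-30d first). dre-miR-30e-5p differs from dre-miR-30d by 2 bases (C12T and C13T). dre-miR-30c-5p and dre-miR-30b have their first 18 bases in common and differ at 4 positions after them. A read of dre-miR-30d with the error C10T would match dre-miR-30a-5p exactly and could be counted for it. The authors also allowed 1 mismatch when reads were aligned to precursors, so a read of either could align to the precursor of the other. For this pair the ratio within each sample is therefore given further on. Of the family's genes, 5 were found in the RefSeq gene list of the zebrafish assembly GRCz12tu (mir30a, dre-mir-30b, dre-mir-30c, mir30d and mir30e-2). On chromosome 16, mir30d and dre-mir-30b followed each other with no listed gene starting between them. On chromosome 13, mir30e-2 and dre-mir-30c had 1 gene starting between them, a long non-coding RNA (LOC137487406). mir30a was on chromosome 19 with no other member.

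The series as a whole sets the limits of these values. The normalized counts of a library summed to 1779302 to 2196896 in stage IIIa and to 1819026 to 3166619 in stage IIIb. From the step between low values, the reads behind these sums were estimated at 1129114 (stage IIIa replicate 1) to 9045233 (stage IIIb replicate 3). The step was chosen as the largest of which at least 80% of the values under 400 normalized counts were whole multiples. It accounted for 82.8% to 85.9% of them (tolerance 0.01 of a step), figures that this rule sets in part. Some members came to a fraction of a read, as dre-miR-30a-5p (614.5) and dre-miR-30d (52176.5) did in stage IIIa replicate 1. In stage IIIa replicate 3, dre-miR-30c-5p (24365.5) and dre-miR-30b (16559.5) did. The read numbers are therefore estimates, and whether reads were divided between members was not tested. At that depth the member value with the fewest estimated reads was dre-miR-30c-3p in stage IIIa replicate 1. It rested on about 193 reads, a counting SD of 7.20%, and the largest counting SD of dre-miR-30d was 0.438%. These figures cover counting error only. The gonad miRNA miR-202, both arms summed, had 302601 to 626406 normalized counts over the 6 samples, the smooth muscle and stroma list (miR-143 and both arms of miR-145) 179948 to 561268, and the endothelium list (2 miR-126 rows) 24940 to 58353. The oocyte and embryo list (3 miR-430 rows) summed to 260 to 1489, the leukocyte list (5 rows) to 4511 to 11398 and the skeletal muscle miRNA dre-miR-133a-3p to 32.1 to 161, with overlap between the stages in each. Of all listed markers only the liver miRNA dre-miR-122 was at 0 in any sample, and it reached 784. The 6 red blood cell miRNAs summed to between 19142 and 32402 in stage IIIa and between 2863 and 5142 in stage IIIb, without overlap, and their part in the results below was not tested.

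The family was one of the most abundant in follicular cells and a single member, dre-miR-30d, made up more than all others combined. Summed over its 7 rows, the family held 8.86%, 6.06% and 6.70% of all normalized counts for stage IIIa, and 6.56%, 7.33% and 6.81% for stage IIIb. The mean over the 6 samples was 7.05% ± 0.975 (SD, n = 6), which placed miR-30 at rank 5 of the 103 zebrafish families grouped by number, below miR-92 (7.29%) and above miR-181 (6.11%), with miR-202 the highest (18.04%). Neither neighbour kept its place in both stages: miR-181 was above miR-30 at stage IIIa (7.44% against 7.21%), and miR-92 was below it at stage IIIb (5.41% against 6.90%). Other families crossed miR-30 the opposite way. miR-22 (4.53% and 10.08%) and miR-27 (4.46% and 7.10%) were below it at stage IIIa and above it at stage IIIb. The stages overlapped, at 7.21% ± 1.47 for stage IIIa against 6.90% ± 0.391 for stage IIIb (SD, n = 3 each; exact two-sided permutation test, p = 0.90). Without stage IIIa replicate 1 the difference of the means, stage IIIb minus stage IIIa, went from -0.31 to 0.52 percentage points, so the share of the family as a whole has no settled direction in these samples.

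The normalized counts of dre-miR-30d were 82222, 70075 and 77658 at stage IIIa, against 72479, 120011 and 129711 at stage IIIb. Its mean over the 6 samples was 92026 ± 25961 (SD, n = 6), rank 8 of all 289 miRNAs. In stage IIIb, replicates 2 and 3 were above every stage IIIa sample while replicate 1 lay within the stage IIIa range. dre-miR-30e-5p was next, with 45449, 34362 and 32881 in stage IIIa and 22213, 36288 and 41116 in stage IIIb. The highest and the lowest of its values were thus replicate 1 of stage IIIa and replicate 1 of stage IIIb. dre-miR-30c-5p had 20139, 14100 and 13096 in stage IIIa and 10025, 17122 and 19969 in stage IIIb, with the same samples at the extremes.

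**Figure D1:**
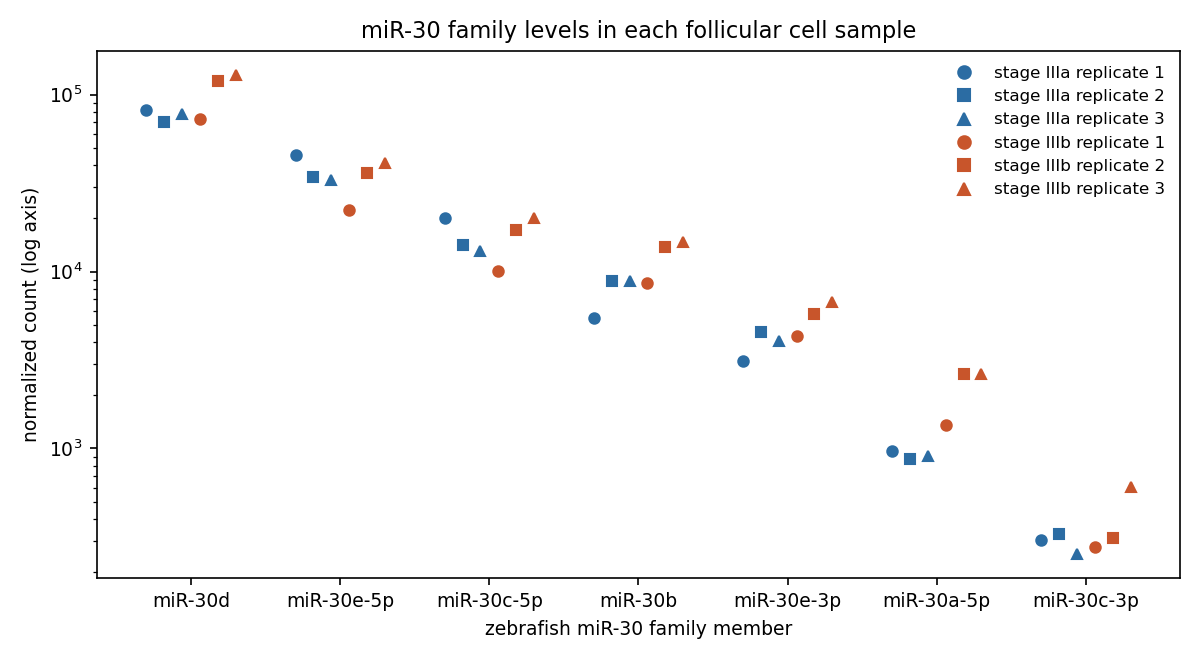
Normalized counts (log axis) of the 7 miR-30 members in each of the 6 samples, blue for stage IIIa and orange for stage IIIb, with a marker shape per replicate number. The order from dre-miR-30d, with a mean of 92026, to dre-miR-30c-3p, with a mean of 347, was the same in all 6 samples, and dre-miR-30a-5p is the member whose stage IIIb values all lie above its stage IIIa values.

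The remaining 4 members were lower. dre-miR-30b had 5446, 8841 and 8901 normalized counts in stage IIIa and 8641, 13716 and 14721 in stage IIIb. Stage IIIa replicate 1, which was the highest sample for dre-miR-30e-5p and dre-miR-30c-5p, was the lowest for dre-miR-30b. dre-miR-30e-3p, the opposite arm to dre-miR-30e-5p, had 3108, 4549 and 4074 in stage IIIa and 4348, 5782 and 6772 in stage IIIb, again with stage IIIa replicate 1 lowest. dre-miR-30a-5p had 968, 871 and 904 in stage IIIa and 1366, 2650 and 2628 in stage IIIb, and its stages did not overlap. dre-miR-30c-3p, the opposite arm to dre-miR-30c-5p, had 304, 330 and 254 in stage IIIa and 278, 314 and 602 in stage IIIb. Only its stage IIIb replicate 3 stood above the other 5 samples.

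The order of the members was the same in all 6 samples: dre-miR-30d, dre-miR-30e-5p, dre-miR-30c-5p, dre-miR-30b, dre-miR-30e-3p, dre-miR-30a-5p and dre-miR-30c-3p. Each member was above its neighbour in 6 of 6 samples, which gives p = 0.031 in an exact two-sided sign-flip permutation test for each of the 6 neighbouring pairs (0.031 also after Benjamini-Hochberg adjustment over the 6), the smallest p that 6 samples allow. The order was taken from the means of these same 6 samples, so this p only restates that it held in each. dre-miR-30d was above dre-miR-30e-5p by 2.58-fold in the geometric mean of the samples, with a range of 1.81 to 3.31. The closest neighbours were dre-miR-30c-5p and dre-miR-30b, at 1.60-fold (range 1.16 to 3.70). This ratio was 3.70 in stage IIIa replicate 1. The widest step was that from dre-miR-30a-5p to dre-miR-30c-3p, 4.19-fold (range 2.64 to 8.45).

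Within the family, dre-miR-30d held a larger share in the 3 stage IIIb samples than in the 3 stage IIIa samples. It made up 52.2%, 52.6% and 56.4% of the family counts for stage IIIa, and 60.7%, 61.3% and 60.2% for stage IIIb. The stages did not overlap, at 53.7% ± 2.30 and 60.7% ± 0.541 (SD, n = 3 each), a difference of 7.005 percentage points (exact two-sided permutation test, p = 0.10, the smallest that 3 samples against 3 allow, and 0.14 after Benjamini-Hochberg adjustment over the 7 members' shares). Such a share is taken within a sample and does not depend on how the libraries were scaled. Leaving out each sample in turn, the difference was between 6.22 and 8.33 percentage points. The share of dre-miR-30d in all counts overlapped between the stages (3.86% ± 0.719 and 4.19% ± 0.265, SD, n = 3 each; exact permutation test, p = 0.50). Counted among the 5 strands with the shared seed alone, dre-miR-30d averaged 55.4% ± 2.53 at stage IIIa against 62.9% ± 0.514 at stage IIIb (SD, n = 3 each).

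The share that dre-miR-30d held more of in stage IIIb was about that which dre-miR-30e-5p held less of. dre-miR-30e-5p made up 28.8%, 25.8% and 23.9% of the family counts in stage IIIa and 18.6%, 18.5% and 19.1% in stage IIIb. The stages did not overlap, at 26.2% ± 2.502 and 18.7% ± 0.297 (SD, n = 3 each; exact two-sided permutation test, p = 0.10, adjusted 0.14), and the difference was -7.43 percentage points. Together dre-miR-30d and dre-miR-30e-5p averaged 79.9% ± 1.31 at stage IIIa against 79.5% ± 0.286 at stage IIIb (SD, n = 3 each), with overlap. The ratio of dre-miR-30d to dre-miR-30e-5p was 1.81, 2.04 and 2.36 in stage IIIa and 3.26, 3.31 and 3.15 in stage IIIb. Shares of 1 family sum to 100%, so a gain of one member is in part a loss of another, and these 7 shares are not independent of each other.

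**Figure D2:**
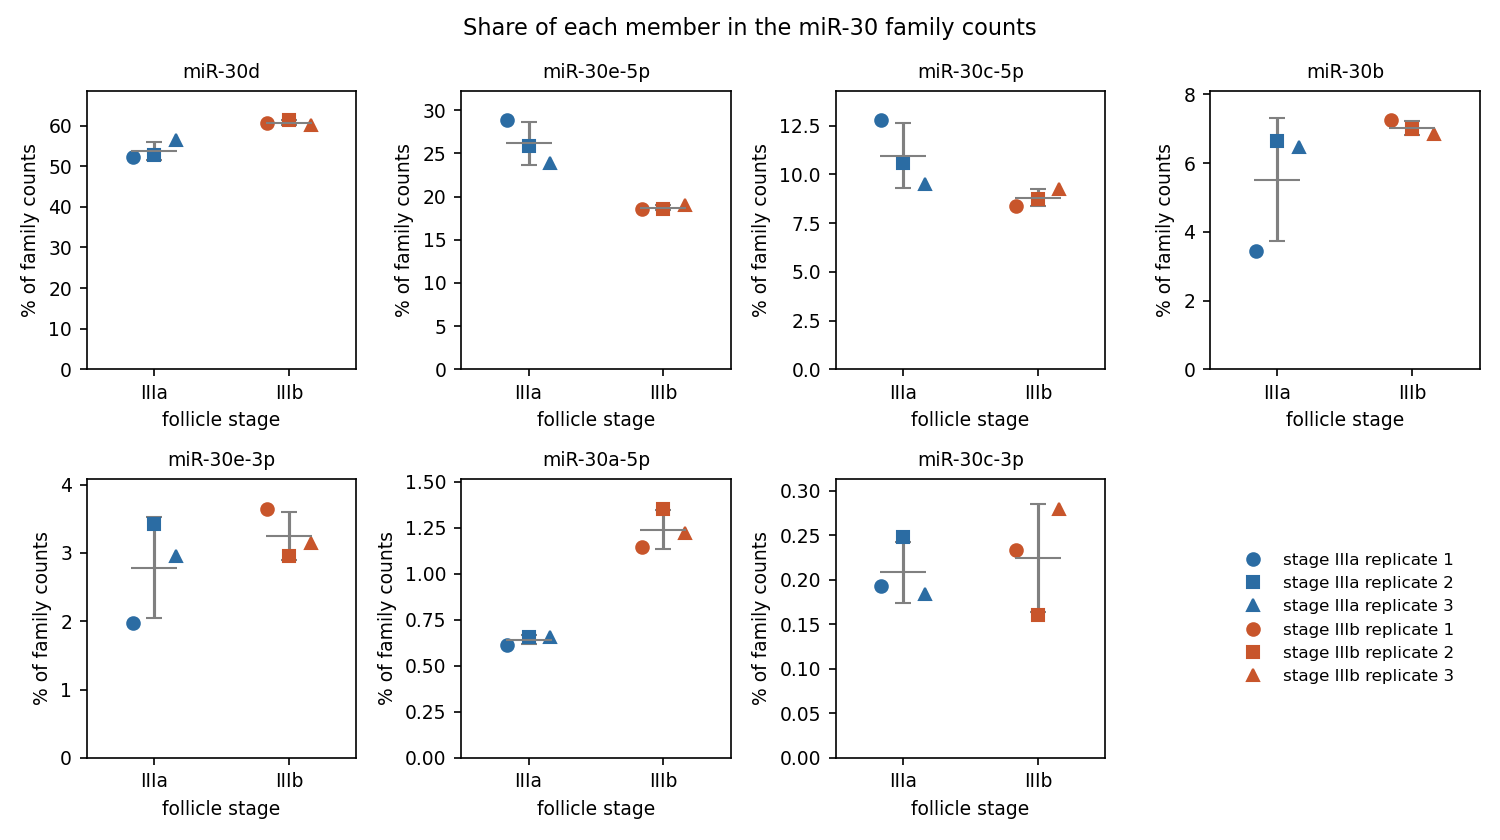
Share of each member in the summed counts of the miR-30 family, in percent with each axis from 0, by stage, with 1 point per sample and grey lines for the mean ± SD of the 3 samples. The shares of dre-miR-30d (53.7% and 60.7% on average), dre-miR-30b and dre-miR-30a-5p were higher in every stage IIIb sample, those of dre-miR-30e-5p (26.2% and 18.7%) and dre-miR-30c-5p were lower, and both 3p strands overlapped.

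In all, 5 of the 7 shares did not overlap between the stages: 3 were higher in stage IIIb and 2 were lower. Such shares were not computed for other families, so this count has no background to be read against. The 7 shares are also tied to each other, since a higher share of some members lowers that of others. On the normalized counts themselves, 1 of the 7 members, dre-miR-30a-5p, was higher in stage IIIb without overlap and none was lower. Of all 289 miRNAs, 11.8% were higher and 7.96% lower without overlap, so this count does not set the family apart. Among shares of all counts, given further on with their background, 3 members were higher and 1 was lower. dre-miR-30a-5p, a minor member, held 0.614%, 0.654% and 0.656% of the family in stage IIIa and 1.14%, 1.35% and 1.22% in stage IIIb, so its share was about 2 times as large there. The gap between the stages (0.641% ± 0.0235 against 1.24% ± 0.106, SD, n = 3 each) was much wider than the spread within either (exact permutation test, p = 0.10, adjusted 0.14). dre-miR-30c-5p went from 10.96% ± 1.67 to 8.80% ± 0.436 and dre-miR-30b from 5.52% ± 1.79 to 7.02% ± 0.206 (SD, n = 3 each; exact permutation test, p = 0.10 and adjusted 0.14 for each). Stage IIIa replicate 1 decided much of both. Without it the difference in the share was -1.25 in place of -2.16 percentage points for dre-miR-30c-5p and 0.473 in place of 1.51 for dre-miR-30b, still without overlap. dre-miR-30e-3p (2.78% ± 0.739 and 3.25% ± 0.357, exact permutation test, p = 0.50) and dre-miR-30c-3p (0.208% ± 0.0344 and 0.224% ± 0.0602, p = 0.80) overlapped (SD, n = 3 each).

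The stage change of each member was then tested on the counts themselves, with limma on log2(normalized count + 1) over all 289 miRNAs, where a log2 fold change is stage IIIb over stage IIIa and understates the change of low miRNAs. No member had an adjusted p under 0.05 (Benjamini-Hochberg), and 4.5% of all 289 miRNAs did. At that share, the lack of a call among 7 members does not set the family apart. The lowest adjusted p was that of dre-miR-30a-5p. Its normalized count went from 914 ± 49.7 to 2215 ± 735 (SD, n = 3 each), a log2 fold change of 1.21 (SE 0.36, unadjusted p = 0.00578, limma adjusted p = 0.0928). With only the 190 miRNAs of a mean of at least 100 normalized counts in the fit, its adjusted p was 0.0362, and without stage IIIb replicate 1 it was 0.0225. These were the only 2 of the 16 alternative settings with an adjusted p under 0.05 for it. Over the 16 its log2 fold change lay between 0.90 and 1.53 and its adjusted p between 0.0225 and 0.453. The equal-variance test on untransformed counts, the kind of test that the paper's methods name, gave an adjusted p of 0.423. Before adjustment, with p at 0.05 or less, dre-miR-30a-5p was the 1 member of 7 that was higher in stage IIIb, against 9.69% of all miRNAs, and no member was lower, against 5.19%. It was also the 1 member whose counts did not overlap between the stages, where 11.8% of all miRNAs were higher and 7.96% lower without overlap.

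The other 5p strands differed in sign. dre-miR-30d went from 76652 ± 6135 to 107401 ± 30630 normalized counts (SD, n = 3 each), which is 0.44 on the log2 scale (SE 0.31, adjusted p = 0.537 from limma). For dre-miR-30b the log2 fold change was 0.68 (SE 0.35, adjusted p = 0.385 from limma), with overlap. dre-miR-30e-5p had -0.21 (SE 0.33, limma adjusted p = 0.794) and dre-miR-30c-5p -0.04 (SE 0.35, limma adjusted p = 0.964). Of the 3p strands, dre-miR-30e-3p had 0.52 (SE 0.33) and dre-miR-30c-3p 0.35 (SE 0.39), with limma adjusted p of 0.504 and 0.685. The counts of these 6 members overlapped between the stages. The median of the 7 members was 0.44 and that of all 289 miRNAs was 0.15.

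**Figure D3:**
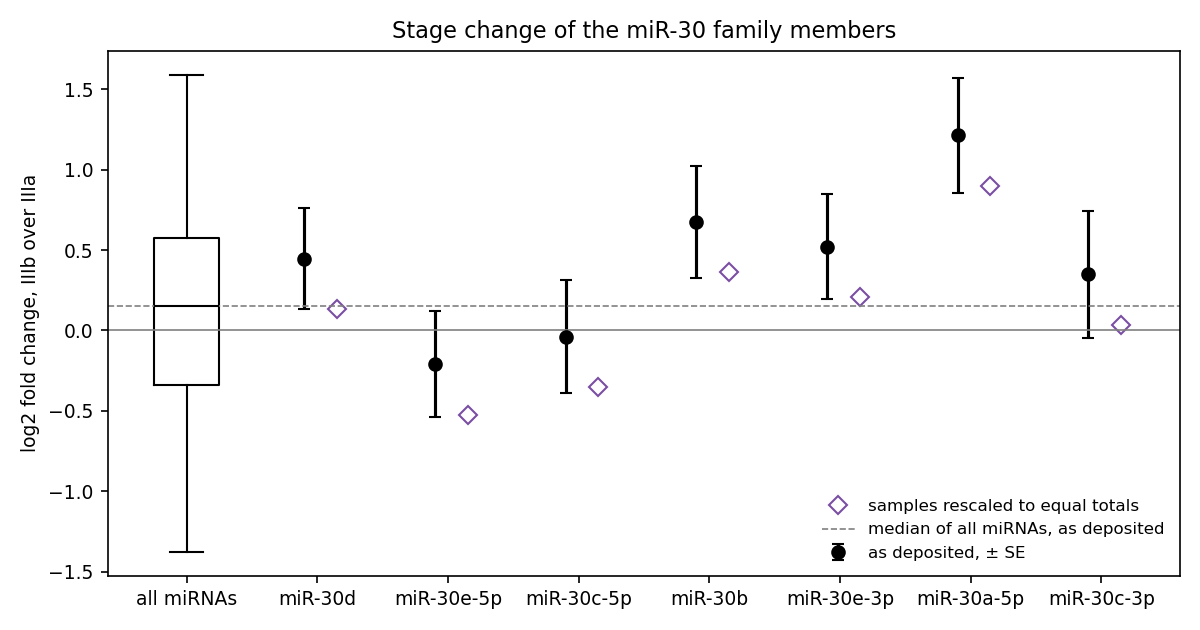
Log2 fold change of stage IIIb over stage IIIa for the 7 members, as deposited (filled circles, ± SE from limma) and with the samples rescaled to equal totals (open diamonds), beside all 289 miRNAs (box from the lower to the upper quartile, whiskers from the 5th to the 95th percentile). dre-miR-30a-5p has the highest value of the family, 1.21 as deposited and 0.90 with equal totals, and dre-miR-30e-5p the lowest, -0.21 and -0.52.

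The scaling of the libraries shifts all of these values. Over the 289 miRNAs the median log2 fold change was 0.15 without rescaling, -0.16 with equal totals and -0.02 with median-of-ratios scaling. Relative to the deposited median, dre-miR-30a-5p was at 1.06, dre-miR-30b at 0.52, dre-miR-30e-3p at 0.37, dre-miR-30d at 0.29, dre-miR-30c-3p at 0.20, dre-miR-30c-5p at -0.19 and dre-miR-30e-5p at -0.36. With equal totals, the log2 fold change of dre-miR-30e-5p was -0.52 (unadjusted p = 0.0482, limma adjusted p = 0.228) and that of dre-miR-30a-5p 0.90 (unadjusted p = 0.00379, limma adjusted p = 0.0596). These were the 1 lower and the 1 higher member with an unadjusted p up to 0.05 in that fit, against 14.5% of all miRNAs lower and 6.92% higher. As a share of all counts, 3 members were higher in every stage IIIb sample than in any stage IIIa sample, where 10.7% of all miRNAs were, and 1 was lower, where 18.3% were. The 3 were dre-miR-30b, from 0.381% ± 0.0663 to 0.484% ± 0.0254, dre-miR-30e-3p, from 0.193% ± 0.0168 to 0.223% ± 0.0139, and dre-miR-30a-5p, from 0.0460% ± 0.00760 to 0.0857% ± 0.0122 (SD, n = 3 each). The lower one was dre-miR-30e-5p, from 1.91% ± 0.562 to 1.29% ± 0.0682 (SD, n = 3 each). Stage IIIa replicate 1 set much of the size: without it the difference was -0.290 in place of -0.614 percentage points for dre-miR-30e-5p and 0.0665 in place of 0.104 for dre-miR-30b, still without overlap.

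dre-miR-30a-5p and dre-miR-30d, which are told apart by 1 base, did not keep a fixed ratio. The count of dre-miR-30a-5p was 1.18%, 1.24% and 1.16% of that of dre-miR-30d for stage IIIa, and 1.88%, 2.21% and 2.03% for stage IIIb. The stages did not overlap, and the difference of the mean log2 ratio was 0.77 (exact two-sided permutation test, p = 0.10, adjusted to 0.15 over the 3 ratios tested; 0.71 to 0.82 with each sample left out in turn). aca-miR-30a-5p, which also differs from dre-miR-30d by 1 base (C12T), was at 0.0489% to 0.0728% of dre-miR-30d, and there the stages overlapped (0.0597% ± 0.0121 and 0.0592% ± 0.0112, SD, n = 3 each). The same row differs by 1 base from dre-miR-30e-5p too (T13C, the base of dre-miR-30e-5p first). Relative to dre-miR-30e-5p, aca-miR-30a-5p ranged from 0.0884% to 0.148% over the stage IIIa samples and from 0.163% to 0.235% over the stage IIIb samples, without overlap. The normalized counts of aca-miR-30a-5p, 40.2 to 51.0 against 52.3 to 66.9, did not overlap either. The gap from 51.0 to 52.3 was narrow, and the counting error of this row was not estimated. Of all miRNAs, 11.8% were higher in stage IIIb without overlap. Its estimated stage change in limma, 0.43 on the log2 scale, was smaller than the SE of 0.50 (unadjusted p = 0.411). With equal totals this estimate was 0.12. How many reads of dre-miR-30d or dre-miR-30e-5p were counted under another of these names was not tested.

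**Figure D4:**
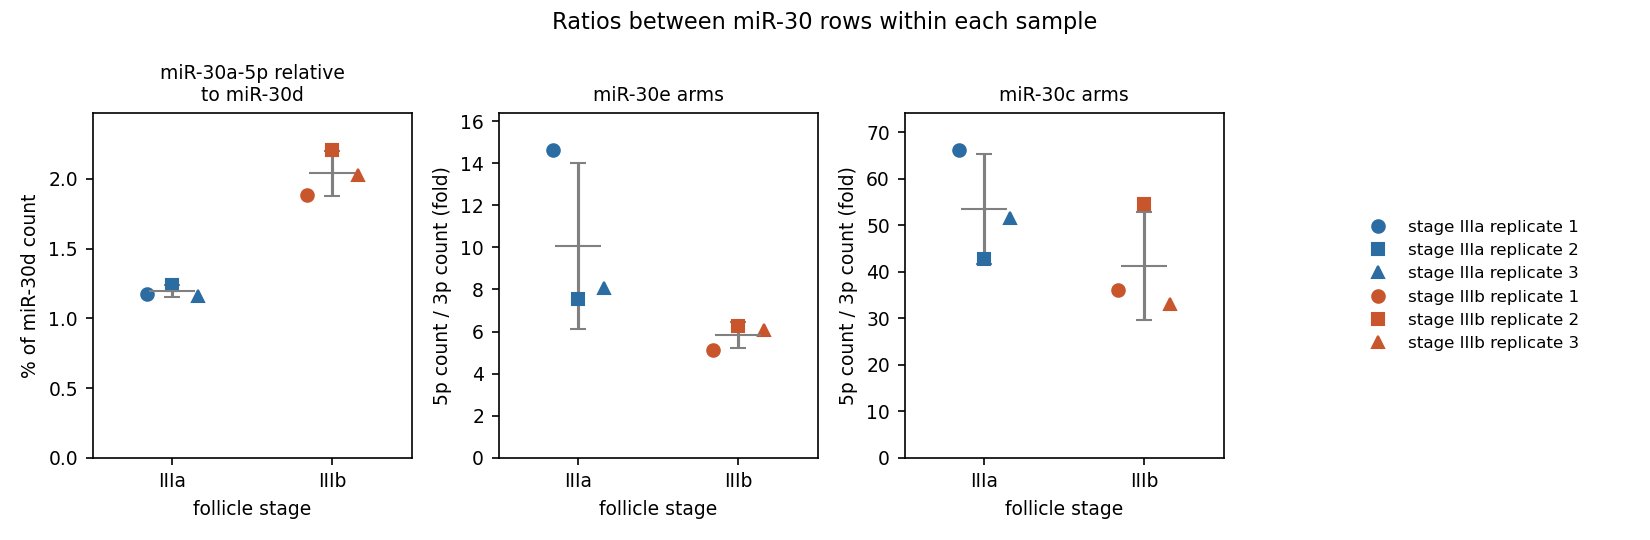
Ratios taken within each sample, by stage, with 1 point per sample and grey lines for the mean ± SD of the 3 samples, and each axis from 0: dre-miR-30a-5p in percent of dre-miR-30d, and the count of the 5p strand over that of the 3p strand (fold) for miR-30e and miR-30c. dre-miR-30a-5p was at most 1.24% of dre-miR-30d in stage IIIa and at least 1.88% in stage IIIb, and the 5p strand of miR-30e was at least 7.55-fold above its 3p strand in stage IIIa and at most 6.28-fold in stage IIIb.

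In these samples the balance of the 2 arms of miR-30e differed between the stages. dre-miR-30e-5p was 14.6-fold, 7.55-fold and 8.07-fold above dre-miR-30e-3p for stage IIIa, and 5.11-fold, 6.28-fold and 6.07-fold above it for stage IIIb. The stages did not overlap, with a difference of the mean log2 ratio of -0.73 (exact two-sided permutation test, p = 0.10, adjusted 0.15). Without stage IIIa replicate 1 it was -0.43, still without overlap. For miR-30c the 5p strand was 33.1-fold to 66.2-fold above the 3p strand, the mean log2 ratio was 5.72 ± 0.316 at stage IIIa against 5.33 ± 0.385 at stage IIIb (SD, n = 3 each), and the stages overlapped (exact permutation test, p = 0.30). dre-miR-30e-3p is also contained whole in the precursor that the authors give for aca-miR-30a-5p, from base 60 of 94, so its counts may come from more than 1 hairpin. The precursor given for ipu-miR-30d begins with the whole sequence of dre-miR-30d, with ipu-miR-30d further on, from base 44. dre-miR-30d was between 111-fold and 186-fold above ipu-miR-30d, whose normalized counts were 559 to 831 over the 6 samples.

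Of the 2 pairs of members with neighbouring genes, dre-miR-30e-5p and dre-miR-30c-5p kept a narrow ratio. dre-miR-30b and dre-miR-30d did so only with stage IIIa replicate 1 set aside. A narrow ratio was not particular to neighbours. dre-miR-30b was above dre-miR-30e-3p, whose listed gene is on another chromosome, by 1.75-fold to 2.37-fold (SD of the log2 ratio 0.15). dre-miR-30e-5p was above dre-miR-30c-5p by 2.06-fold to 2.51-fold in all 6 samples (SD of the log2 ratio 0.11), and the log2 shares of all counts of the pair had Pearson's r = 0.96 over the 6 samples. dre-miR-30b and dre-miR-30d had r = -0.10. Their log2 ratio, dre-miR-30b over dre-miR-30d, lay between -3.14 and -2.99 in 5 samples, with stage IIIa replicate 1 apart at -3.92 (SD 0.34 over all 6). No r was computed without that sample, so the values of r do not rank the pairs. The strands of the miR-30e hairpin, dre-miR-30e-5p and dre-miR-30e-3p, had r = -0.95. Stage IIIa replicate 1 had the highest share of dre-miR-30e-5p and dre-miR-30c-5p and the lowest of dre-miR-30b and dre-miR-30e-3p. All these values share the same 6 libraries and their totals and are given as a description.

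The miRNAs outside the family with the pattern most like dre-miR-30d, by Pearson's r of the log2 share of all counts over the 6 samples among 180 miRNAs, were dre-mir-27c-p5 (r = 0.86), dre-miR-125a (r = 0.84) and mdo-miR-29a-3p (r = 0.80). For dre-miR-30a-5p they were mdo-miR-29a-3p (r = 0.97), dre-miR-29a (r = 0.94) and dre-mir-29a-p5 (r = 0.92), all rows of the miR-29 family. Each of these 3 rows had higher normalized counts in every stage IIIb than in every stage IIIa sample, as dre-miR-30a-5p and 11.8% of all miRNAs did. They were picked for a pattern like that of dre-miR-30a-5p, so this follows in part from the choice. None of them has its seed.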

How the data were processed

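Small RNA libraries of the 6 samples were processed by the authors with ACGT101-miR, and reads were aligned to miRBase precursors with 1 mismatch and varying ends allowed. The submitters' processing notes name the genome build GRCz11. The deposited values are a signal, the counts of each miRNA divided by the authors' library size parameter, and not raw counts. The step between low values was the largest of which at least 80% of them were whole multiples, and 82.8% to 85.9% were. Whether a smaller step would account for more was not tested, so the step was used only to estimate depth and no count test was run.

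The stages were compared by a two-sided limma fit (version 3.58.1, run under R 4.3.3) to log2(normalized count + 1) with a mean-variance trend, no filter and Benjamini-Hochberg adjustment over the 289 miRNAs. The paper's methods name an equal-variance test on untransformed values, which was run as an alternative. limma was checked on simulated data with planted changes larger than the estimate of any member, so the check does not cover changes of their size. Shares and ratios were compared with exact permutation tests over the 20 assignments of samples. The members and lists were chosen with earlier results of these data known. The named miRNAs are all zebrafish rows numbered 30, related rows of other species, families near miR-30 in rank, and the 3 miRNAs most alike in pattern to dre-miR-30d and to dre-miR-30a-5p. Marker miRNAs of other cell types are named as well, from fixed lists. The paper describes each sample as a pool from several fish and does not say whether pools, within or between stages, shared fish. The p-values for a stage difference treat the pools as independent samples.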

Additional observations from a re-analysis of the deposited data

How the results depend on the processing

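No member reached an adjusted p under 0.05 as reported, and 1 did, dre-miR-30a-5p, with a filter at a mean of 100 normalized counts. With each sample left out in turn 0 to 1 members did. Before adjustment, with p up to 0.05, the count went from 1 member to 2 with equal totals, to 2 with median-of-ratios scaling and to 2 with a replicate block, and it was 1 to 3 with each sample left out in turn. The small estimates of the 2 members below 0 changed sign in single settings. That of dre-miR-30e-5p was 0.055 without stage IIIb replicate 1 (-0.39 to 0.06 with each sample left out), and that of dre-miR-30c-5p was 0.15 without stage IIIa replicate 1 and 0.26 without stage IIIb replicate 1 (-0.24 to 0.26). The other 5 kept their sign in all 16 alternatives, which also covered other pseudocounts, limma without the trend, robust empirical Bayes, the untransformed values and, added after the values were seen, the block with equal totals. Of these 5, dre-miR-30d ranged from 0.13 to 0.71 and dre-miR-30c-3p from 0.0068, without stage IIIb replicate 3, to 0.56. Over all 289 miRNAs, 13 had an adjusted p under 0.05, but 0 did in the equal-variance test on untransformed values (16 higher and 16 lower before adjustment) and 7 did in the block with equal totals and without stage IIIa replicate 2 or stage IIIb replicate 3. Before adjustment, 28 were higher and 15 lower, which became 20 and 42 with equal totals, 36 and 31 with median-of-ratios scaling, 42 and 17 with the block and 45 and 17 without stage IIIb replicate 1. Why these settings moved the values was not tested. Deviations from the stage means correlated at 0.10, 0.28 and -0.03 between samples of the same number. With 3 samples a stage such deviations are tied to each other, so these values cannot decide whether the samples were paired. The labels give replicate numbers only, and the main fit used no pairs. The order of the members was the same in each stage alone and by the median. With 3 samples a stage the exact tests cannot go below p = 0.10, and dre-miR-30c-3p is the member that depth limits most.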
